A study of Mus musculus with 11 samples.

Results

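ELF5, EHF, ELF3, GATA3, C/EBP-alpha, C/EBP-beta, C/EBP-delta, NFIB, FOXA1 and ID2 are nuclear regulators known for building the luminal and milk-secreting (alveolar) epithelium of the mammary gland, and the levels of their genes in the mouse gland at parturition are described here. The genes were taken by symbol from a list of 10. Of these, 9 had a value, carried by 12 of the 30305 loci of the deposited expression table, and they stand among 14847 named genes. The expression of Cebpb is not analysed here, and of this gene only the promoter sequence is described. The series combined RNA-seq with ChIP-seq of STAT5A and of the promoter mark H3K4me3 in mammary tissue of pregnancy and parturition. Its labels describe 11 samples. The sample used here is the RNA-seq library of whole mammary gland freed of lymph nodes, collected at parturition (L1) from wild-type mice of the background 129SV::FVB/N::C57BL/6. The labels give no age and do not say how many animals the tissue came from.

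Milk secretion is switched on in alveolar luminal cells, where prolactin acts through JAK2 and STAT5. STAT5 is known to work there with other DNA-binding factors. ELF5 is an ETS-domain factor that alveolar cells need to differentiate, GATA3 specifies and maintains luminal cells, and NFI and C/EBP factors bind near STAT5 at milk protein genes. FOXA1 opens chromatin for the estrogen receptor in the hormone-sensing luminal cells, which do not secrete milk. ID2 has a helix-loop-helix but no DNA-binding region and holds E proteins in inactive pairs; mouse glands without Id2 fail to lactate.

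Levels are given as FPKM, fragments scaled by locus length and library size, which allows different genes to be set side by side. There is 1 library, so no value has a replicate error, no test between genes was possible, and whether neighbours in the order of levels truly differ cannot be told. The depth of the library is unknown because the table holds no counts. In whole tissue, fewer cells of a type and less RNA per cell cannot be told apart.

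The 9 genes spanned a wide range, from 577 FPKM for Elf5 to 0.642 FPKM for Foxa1, a ratio of 898. Elf5 was followed by Id2 at 163 FPKM. A middle group came next, with Nfib at 36.8, Ehf at 29.3, Gata3 at 24.9, Cebpa at 20.4 and Cebpd at 12.7 FPKM. Elf3 stood lower at 5.15 FPKM, near the median of all named genes, 3.90 FPKM, and Foxa1 was last. Within the middle group each gene lay 1.18 to 1.61 times above the next. The larger steps in the order were from Elf5 to Id2, 3.53 times, from Id2 to Nfib, 4.45 times on the highest Nfib locus, from Cebpd to Elf3, 2.47 times, and from Elf3 to Foxa1, 8.01 times. On its next locus, at 15.2 FPKM, Nfib would stand between Cebpa and Cebpd, and the step below Id2 would be to Ehf, 5.57 times. Elf5 alone made up 66.3% of the summed FPKM of the 9 genes, and Elf5 and Id2 together 85.1%.

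**Figure D1:**
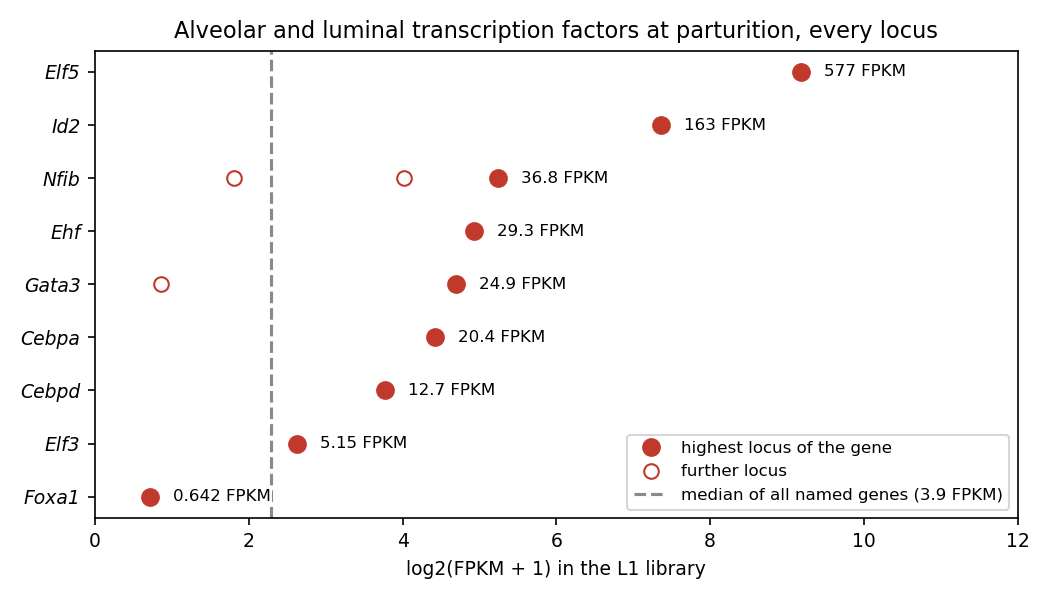
Level of every locus of the 9 genes in the single L1 library, on a log2(FPKM + 1) axis, with genes in order of their highest locus (filled points) and further loci of the same gene as open points. Elf5 at 577 FPKM and Id2 at 163 FPKM stand apart, 5 genes lie between 12.7 and 36.8 FPKM, and Foxa1 at 0.642 FPKM is below the dashed median of all named genes.

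Set among all named genes, most of these regulators were in the upper part of the distribution. At or above 10 FPKM were 7 of the 9, against 27.9% of all named genes, and at or above 100 FPKM were 2, against 2.96%. At or above 1 FPKM were 8 of the 9, where 73.6% of all named genes also stood. Their median was 24.9 FPKM, 6.38 times the median of all named genes. Elf5 ranked 99 of 14847, at percentile 99.3, and Id2 ranked 293, at percentile 98.0. Nfib was at percentile 91.9, Ehf at 89.7, Gata3 at 87.9, Cebpa at 85.3 and Cebpd at 77.2. Elf3 was near the middle at percentile 56.4, and Foxa1 was at percentile 20.6. As the list was drawn up with earlier results of these data known, these places describe the 9 genes and are no test of the list.

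**Figure D2:**
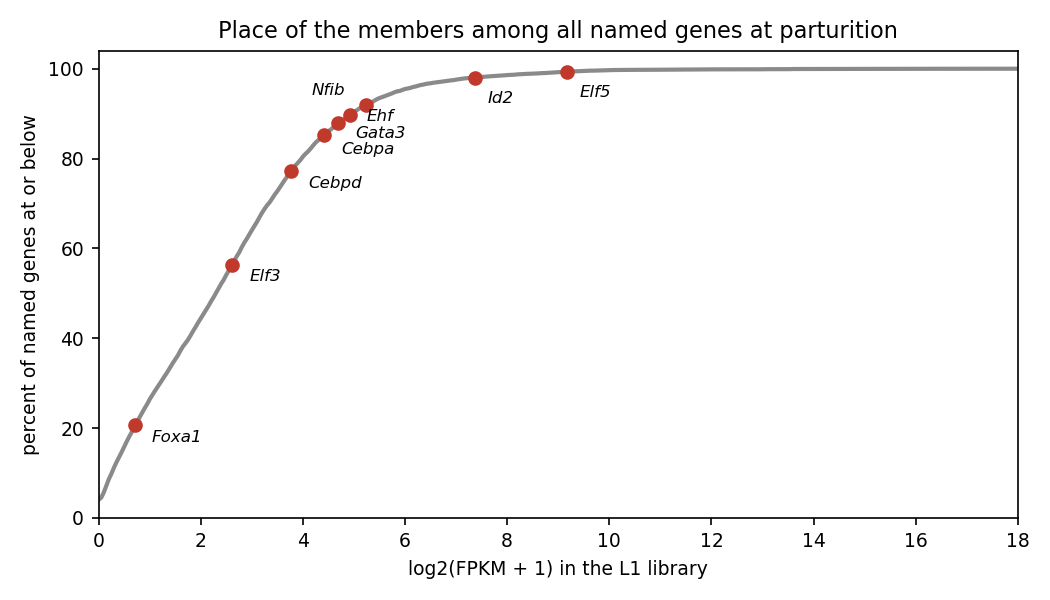
Share of the 14847 named genes at or below each level (grey curve, log2(FPKM + 1) in the L1 library), with the 9 genes marked as red points. Elf5 and Id2 lie on the flat upper end of the curve at percentiles 99.3 and 98.0, Elf3 lies near the middle at 56.4, and Foxa1 lies at 20.6.

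Among the ETS factors Elf5 stood at 577 FPKM, Ehf at 29.3 and Elf3 at 5.15, so that Elf5 was 19.7 times above Ehf and 112 times above Elf3. These 3 belong to the epithelial branch of the ETS family, in which EHF and ELF3 are found in many glandular and lining epithelia. Each had a single locus. Over the 23 measured genes of the ETS family, Elf5 held 82.6% of the summed FPKM, Ehf 4.20% and Elf3 0.737%. Elf5 and Ehf were the highest of the family, and Elf3 was in place 9. The highest ETS genes outside the list were Etv6 at 13.8 FPKM, a repressor known from blood cells, and Elk4 at 11.7, Ets2 at 9.80 and Elf1 at 9.64. Spib, an ETS factor of lymphoid cells, was listed at 0. The median of the family was 4.01 FPKM, close to that of all named genes. With ETS genes under 1 FPKM left out, the share of Elf5 was 82.8%, and with the loci of each gene summed it was 81.5%.

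Gata3 led the GATA factors at 24.9 FPKM, and Elf5 was 23.2 times above it. It had 2 loci. The second stood at 0.817 FPKM, so the first carried 96.8% of the gene's summed FPKM. Of the 7 listed GATA-type genes 4 had a value. Trps1, which encodes a GATA-type repressor also known from mammary epithelium, was next at 15.8 FPKM, whereas Gata6 and Gata2 were at 0.982 and 0.587 FPKM. Gata3 held 58.9% of the summed FPKM of the 4 genes, or 52.03% with the loci of each gene summed. GATA3 is also a factor of T cells. The 11 T cell markers summed to 13.4 FPKM, none of them at 0, with Thy1 at 8.93 FPKM, Lck at 1.10, Cd3g at 0.752 and Cd3e at 0.554. Thy1 held 66.7% of this sum and was the only 1 of the 11 above the median of all named genes. The median of the 11 markers was 0.500 FPKM. The part of T cells in the level of Gata3 was not tested.

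Among the C/EBP genes, Cebpa and Cebpd were close to each other in level. Cebpa stood at 20.4 FPKM and Cebpd at 12.7, a ratio of 1.61, each from a single locus. C/EBP-alpha is best known from fat and liver cells, and C/EBP-delta from the acute-phase response and from the gland after weaning. Between them was Cebpg, a C/EBP form known as a partner of the others, at 16.6 FPKM, while Ddit3, a factor of the stress response, was at 1.07 and Cebpe, a factor of granulocytes, was listed at 0. Cebpa held 40.2% of the summed FPKM of the 5 measured genes and Cebpd 25.0%; without Cebpb these shares do not cover the whole family. C/EBP factors are also made by fat cells and myeloid cells. All 12 adipocyte markers had a value in this tissue, from 5.51 to 723 FPKM and with a sum of 2328, among them Fabp4 (723 FPKM), Cfd (523), Acsl1 (416) and Car3 (389). The 9 measured macrophage markers summed to 185 FPKM, none at 0, with Cd14 at 98.5, Lyz2 at 62.03, Fcer1g at 8.07 and Mpeg1 at 7.69. Only these 4 were above the median of all named genes. Csf1r, Emr1, Mrc1, Cd163 and Itgam were below it, with Itgam lowest at 0.539 FPKM. Cd14 held 53.3% of the macrophage marker sum and Lyz2 33.6%, so the sum rested mainly on these genes. The part of these cells in the levels of Cebpa and Cebpd was not tested.

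Nfib had the highest level of the NFI genes, and its value depended on the locus taken. Its 3 loci stood at 36.8, 15.2 and 2.49 FPKM, which is 67.6%, 27.9% and 4.57% of their sum of 54.4. Nfic was at 10.8 FPKM, Nfix at 10.2 and Nfia at 5.17. These are the other genes of nuclear factor I, a factor that binds a palindromic DNA element. On its highest locus Nfib held 58.5% of the summed FPKM of the 4 genes, and on its next locus 36.7%. The next locus was still above the highest locus of each other gene. Nfia had 8 loci, and the next Nfib locus was not set against their sum. With the loci of each gene summed, Nfib held 57.9%. The locus numbers of the table follow the genome in blocks of a strand. Among genes with a single locus and a strand in RefSeq, 98.9% lay on the strand of most of the 20 genes with the nearest numbers. The highest Nfib locus had a number among genes on the plus strand, 20 of 20, and the next among genes on the minus strand, 20 of 20. The table does not give the strand of a locus, and which of the 2 holds the coding transcript was not tested, so the level of Nfib is given as 36.8 or 15.2 FPKM. Gata3 lies on the minus strand and its higher locus was numbered among 18 genes of the minus strand and 2 of the plus strand.

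Foxa1 was low. Its single locus stood at 0.642 FPKM, under the median of all named genes, and Gata3 was 38.8 times above it. Among the 18 measured forkhead genes, Foxa1 was in place 13. Foxk2 led them at 10.5 FPKM, followed by the growth-signal regulated factors Foxo3 at 7.23 and Foxo4 at 7.15 and by Foxp4 at 6.31. Foxa3, the other FOXA gene with a value, was at 0.0178 FPKM. The genes listed for the hormone-sensing luminal cells stood at a median of 0.992 FPKM over 12 genes, with Foxa1 in place 8. Not all of them are particular to these cells, as GATA3 acts in luminal cells in general and prolactin in alveolar cells. Among the genes above Foxa1 were Gata3, the prolactin receptor gene Prlr at 17.1 FPKM, Cited1 at 6.93 and the estrogen receptor gene Esr1 at 4.16, as well as Wnt4 at 1.24 and Tbx3 at 1.07. The values of Esr1 and Wnt4 are those of the highest of 6 and of 7 loci. Below Foxa1 were the progesterone receptor gene Pgr at 0.313 FPKM and the estrogen target Greb1 at 0.156. Areg, which encodes the growth factor amphiregulin, was listed at 0. Of this list, 6 of 12 genes reached 1 FPKM, against 73.6% of all named genes. The list median of 0.992 FPKM was below that of all named genes, 3.90 FPKM.

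Id2 stood far above its relatives. It had 163 FPKM from a single locus, against 8.99 for Id1, 6.22 for Id3 and 1.47 for Id4, and Id2 was 18.2 times above Id1. The genes of the E proteins, which ID proteins bind, were at 7.16 FPKM for Tcf3, 6.15 for Tcf12 and 5.56 for Tcf4. Id2 was 8.66 times their sum of 18.9 FPKM and held 82.1% of the summed FPKM of all 7 genes. These values take the highest locus of each gene, where Tcf3 has 2 loci and Tcf4 has 3. With the loci of each gene summed, Id2 held 80.5%. These are RNA levels of whole tissue and give no ratio of the proteins within a cell. ID2 is made by many cell types, so the level of Id2 cannot be given to the luminal cells alone.

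**Figure D3:**
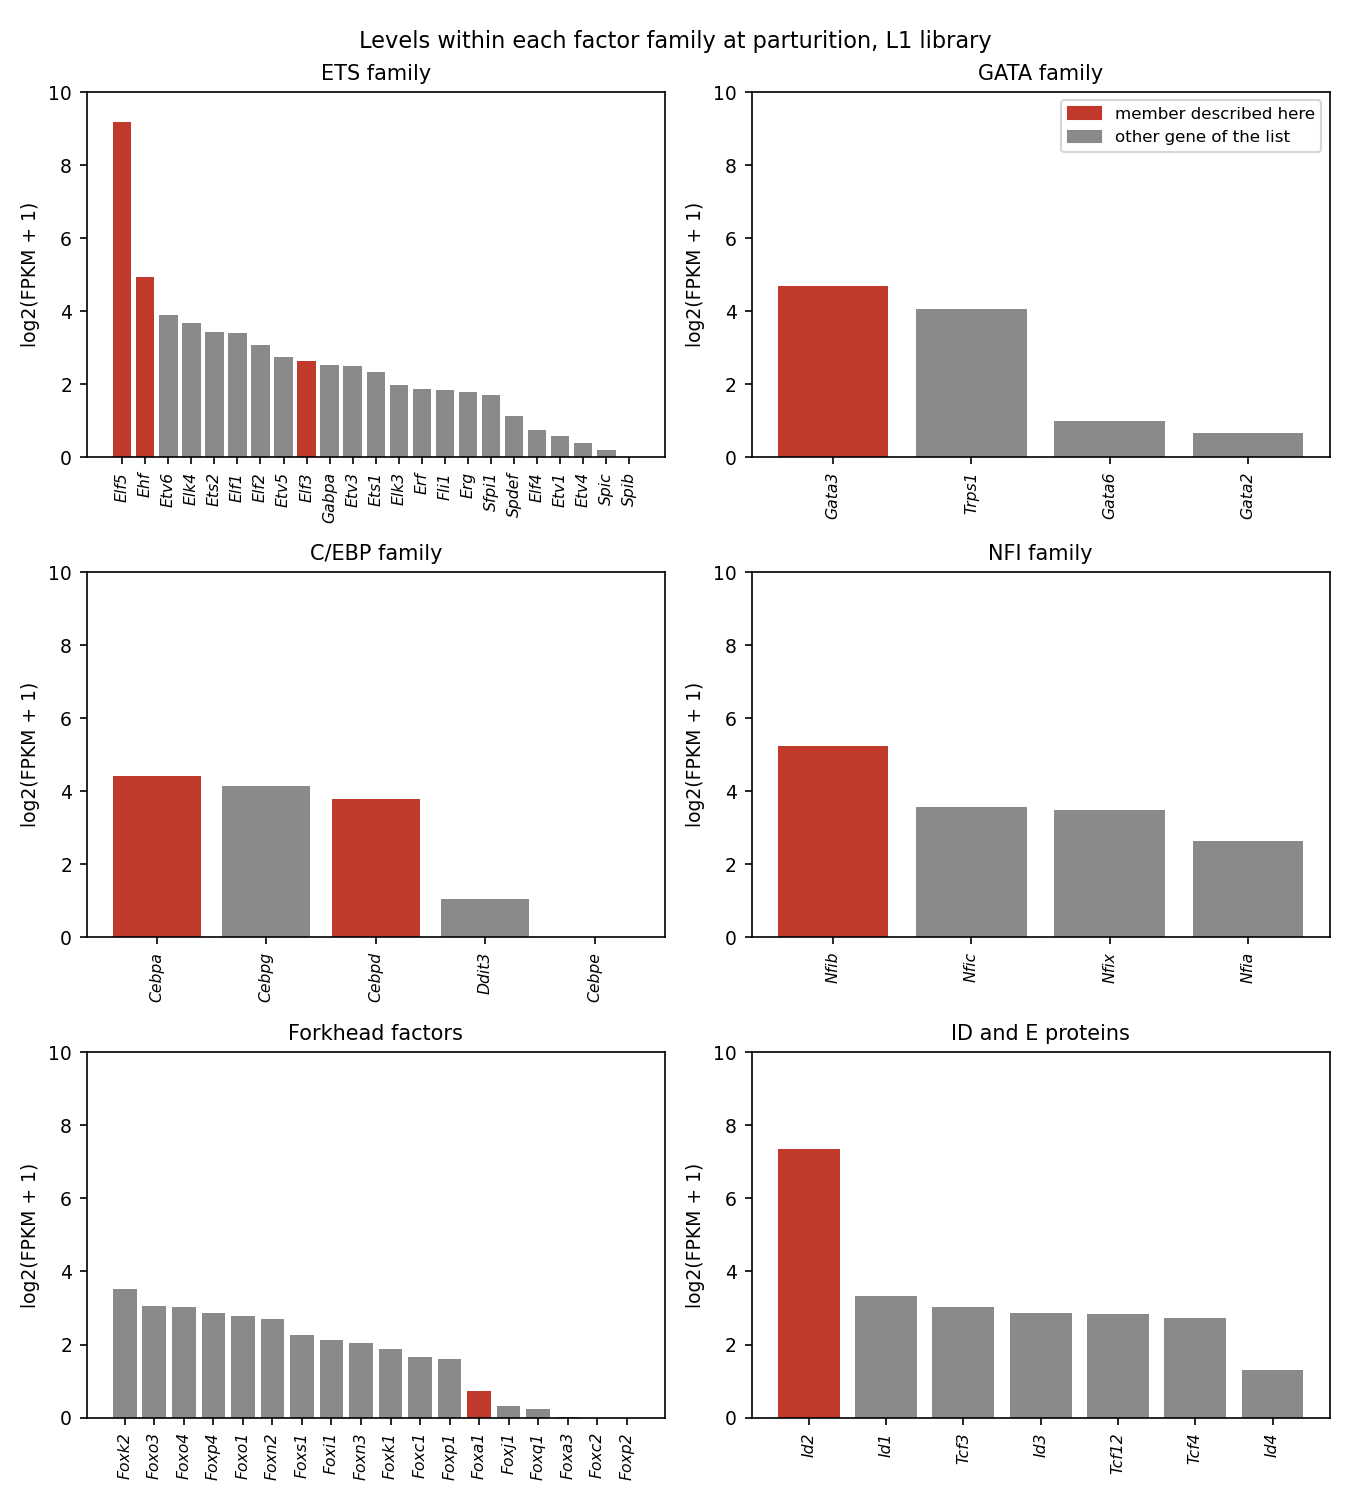
Levels in the L1 library, log2(FPKM + 1), of all measured genes in 6 factor families, each panel sorted from high to low, with the genes described here in red and the other genes in grey. Elf5 and Id2 stand well above the rest of their families, Gata3, Cebpa and Nfib lead theirs by less, and Foxa1 is in place 13 of the 18 forkhead genes. The C/EBP panel is without Cebpb.

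Against a wider set of regulators, Elf5 and Id2 were at the top. The 6 families and the lists of other luminal and of basal regulators together held 105 measured genes. Elf5 and Id2 were in places 1 and 2, and 4 of the 10 highest were among the 9 genes described here, the others being Ehf and, on its highest locus, Nfib. Of the 96 genes outside the list, 19.8% reached 10 FPKM and their median was 3.03 FPKM, against 24.9 for the 9. Xbp1, a regulator of the secretory pathway, was in place 3 at 103 FPKM and Sox10, which is known from neural crest and from basal and progenitor cells of the gland, in place 4 at 70.5. The LIM adaptor gene Lmo4 was at 45.5 FPKM, Stat5a at 41.8 and the glucocorticoid receptor gene Nr3c1 at 34.8, all above Ehf. Elf5 was 13.8 times above Stat5a, taken at the higher of its 2 loci. Of the 32 measured luminal and alveolar regulators outside the list, 28 reached 1 FPKM, against 73.6% of all named genes. At 10 FPKM there were 11 of the 32, against 27.9%. Their median was 5.30 FPKM, against 3.90 for all named genes. Basal and mesenchymal regulators other than Sox10 were low, with Trp63 at 3.37 FPKM, Snai2 at 2.48 and Mef2c at 1.80 and a list median of 1.55 over 12 genes.

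The tissue held markers of several cell types. All 12 luminal markers were above the median of all named genes, with a median of 78.2 FPKM, led by Krt19 at 244, Krt18 at 179, Muc1 at 177 and Spint2 at 160. Elf5, at 577 FPKM, was above each of them, and Id2 was above 9 of the 12. Basal markers had a median of 37.1 FPKM over 9 genes, led by Itga6 at 82.1, Cnn1 at 59.0, Krt14 at 54.2 and Krt5 at 37.9. Of these 9 genes, 8 were above the median of all named genes, and Itgb4 at 2.77 FPKM was below it. Acta2, also listed as a basal marker, had no value. The 7 endothelial markers had a median of 7.05 FPKM, led by Pecam1 (15.1), Cdh5 (14.3) and Egfl7 (9.88), with Kdr, itself at 7.05, in place 4. Of the 7, 5 were above the median of all named genes, while Tek at 3.45 and Vwf at 0.767 FPKM were below it. The milk genes Csn2 at 170861 FPKM, Csn1s1 at 142389, Wap at 63664 and Glycam1 at 59241 were far above every regulator, and Csn2 was 296 times above Elf5.

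**Figure D4:**
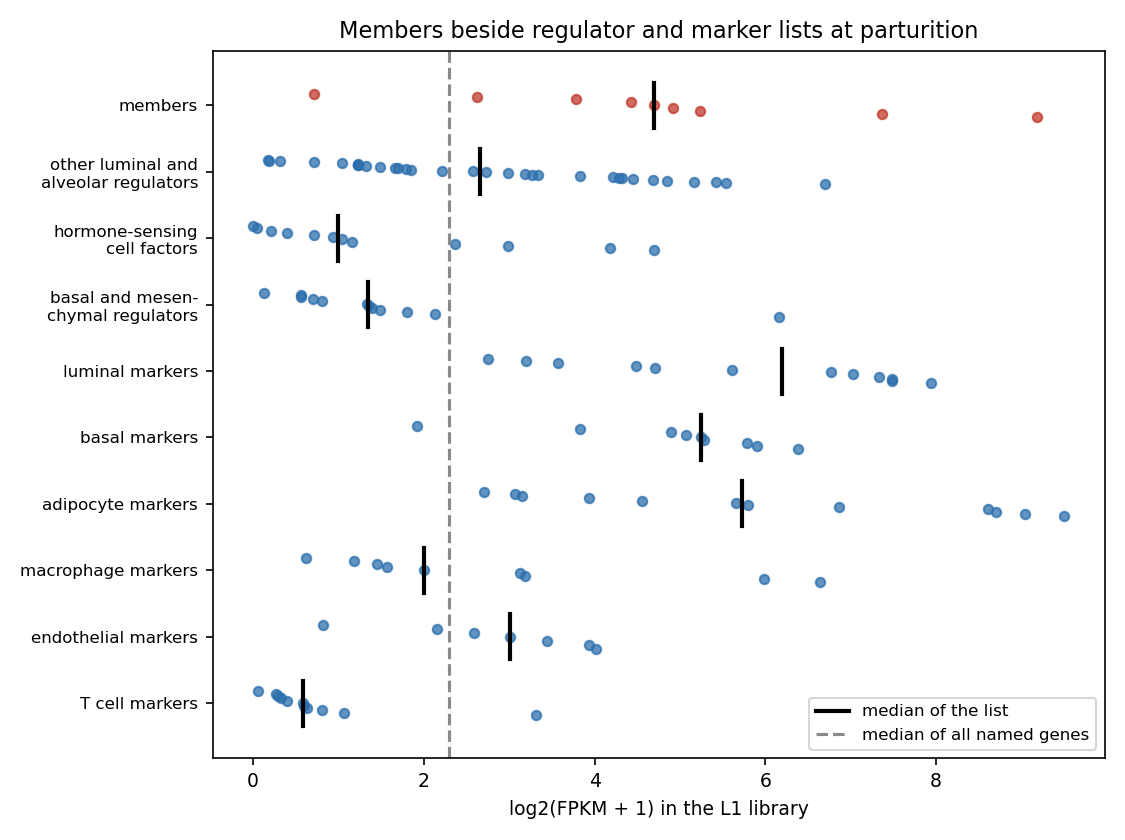
Levels in the L1 library, log2(FPKM + 1), of the 9 genes (red) and of the regulator and marker lists (blue), 1 point per gene, with the list median as a black bar and the median of all named genes as a dashed line. The median of the 9 genes, 24.9 FPKM, lies above those of the other regulator lists and below those of the luminal, basal and adipocyte markers.

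Several of the genes lie next to relatives on the chromosome. Neighbours are the 3 nearest named protein-coding genes on each side that have a value, and genes without a value were passed over. In the RefSeq gene order of GRCm38.p6, Ehf and Elf5 are neighbours on chromosome 2 among the named protein-coding genes, as are Cebpg and Cebpa on chromosome 7. The levels of the first pair were far apart, with Elf5 19.7 times above Ehf, and those of the second were alike, with Cebpa 1.23 times above Cebpg. The 6 genes around Elf5 ranged from 3.52 to 31.8 FPKM. Cat, which encodes catalase and lies on the other side of Elf5, was at 31.8 FPKM. Elf5 stood 18.2 times above it. Id2 too was above all 6 of its neighbours, which ranged from 0.269 to 24.1 FPKM, and so was Nfib, with neighbours of 0.0897 to 7.23 FPKM, also on its next locus. Cebpa was likewise above all 6 of its neighbours, which ranged from 0.359 to 16.6 FPKM. Foxa1 was below all 6 of its neighbours, of which Clec14a at 1.02 FPKM was the lowest and Nkx2-1, which encodes a homeobox factor of lung and thyroid, the highest at 22.4. Of the 10 listed genes 4 are on chromosome 2, the neighbours Elf5 and Ehf as well as Gata3 and Cebpb. The chromosome holds 7.86% of the named protein-coding genes with a value, a share that does not count Cebpb. No test was made of this count.

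**Figure D5:**
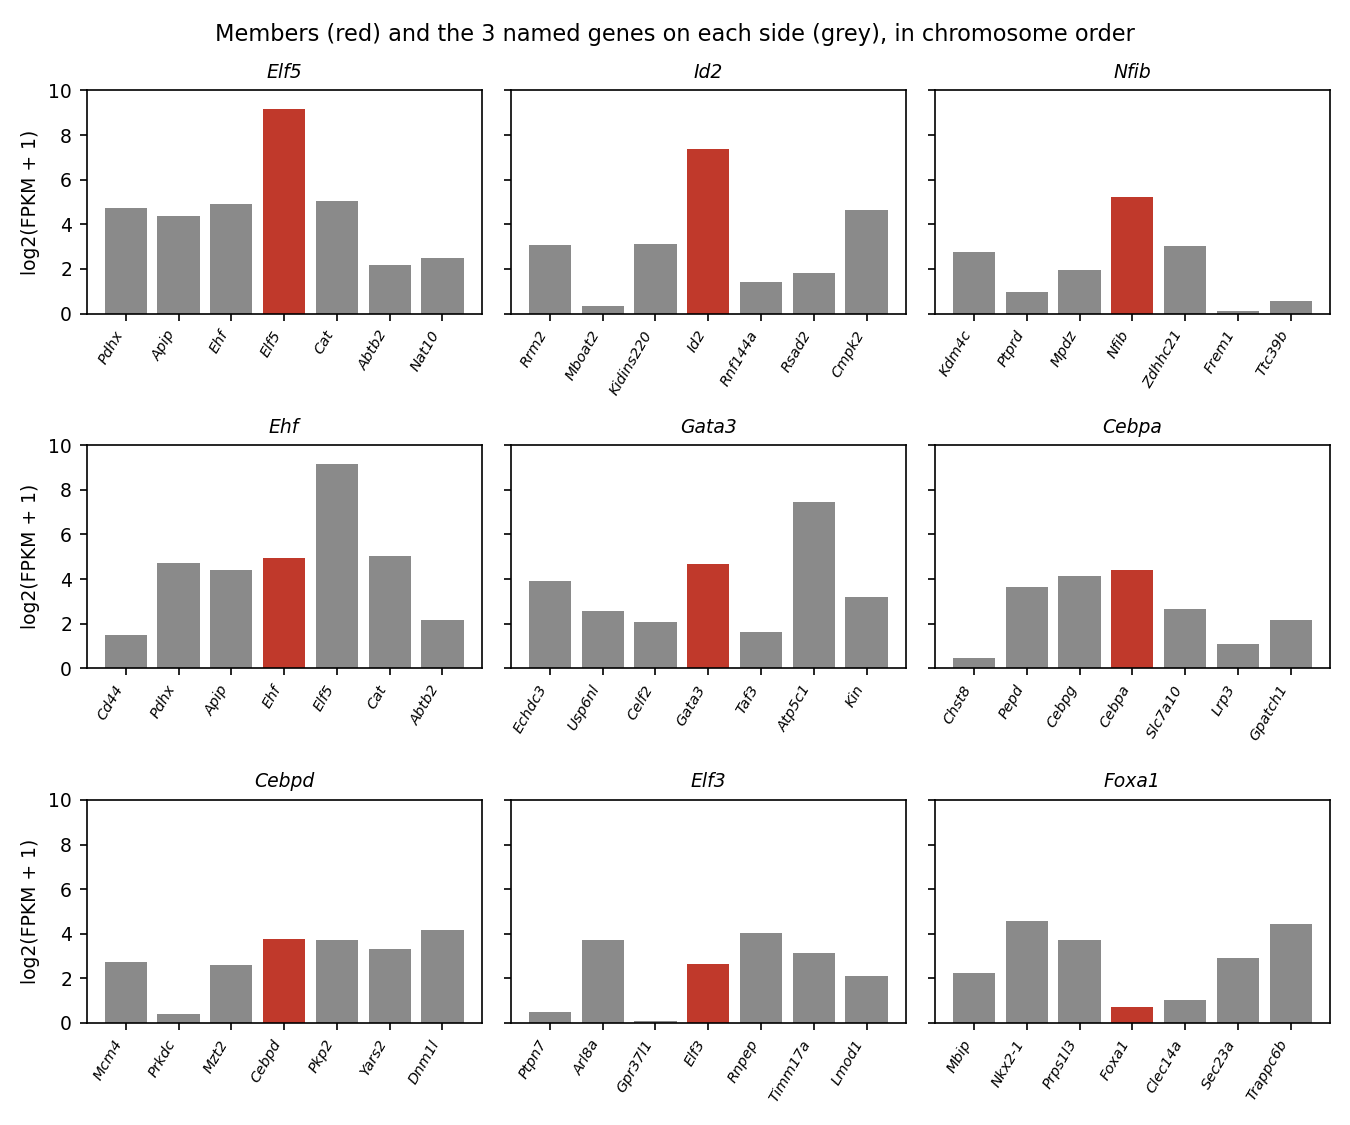
Level, log2(FPKM + 1) in the L1 library, of each of the 9 genes (red) and of its neighbours (grey), in chromosome order without distances. Neighbours are the 3 nearest named protein-coding genes with a value on each side. Elf5, Id2, Nfib and Cebpa stand above all 6 neighbours and Foxa1 below all of its own.

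Promoter sequences, which the expression values did not use, differed in how many CpG sites they hold. RefSeq (GRCm38.p6) gave 8 promoters for 7 of the 10 genes, each from 250 bases before to 50 after the start of transcription. The genes Ehf, Cebpd and Nfib had none in the table. The CpG ratio is the number of CpG sites over that expected from the content of C and G, and its median over 32841 promoters was 0.38, with quartiles of 0.18 and 0.75. The promoters of Elf5 had ratios of 0.11 and 0.44, at percentiles 14.7 and 54.3, and that of Elf3 had 0.46. Those of Gata3 and Id2 had 0.66 and 0.71, and those of Cebpa, Foxa1 and Cebpb had 0.85, 0.93 and 1.03, the last at percentile 95.4. The 250 bases before the start are shown for Elf5 and Id2, the genes with the highest levels, and for Foxa1, the lowest, with each CpG in capitals. The upstream bases of the first Elf5 promoter hold 2 CpG sites and those of the second 8, against 18 for Id2 and 21 for Foxa1. Elf3, at 5.15 FPKM, had a ratio close to that of the second Elf5 promoter.
Elf5 promoter 1, chr2:103411848-103412097, plus strand: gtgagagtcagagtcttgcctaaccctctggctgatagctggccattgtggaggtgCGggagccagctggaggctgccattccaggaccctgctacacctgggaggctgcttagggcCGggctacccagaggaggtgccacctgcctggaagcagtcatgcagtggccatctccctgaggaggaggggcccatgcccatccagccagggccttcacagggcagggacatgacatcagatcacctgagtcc
Elf5 promoter 2, chr2:103423818-103424067, plus strand: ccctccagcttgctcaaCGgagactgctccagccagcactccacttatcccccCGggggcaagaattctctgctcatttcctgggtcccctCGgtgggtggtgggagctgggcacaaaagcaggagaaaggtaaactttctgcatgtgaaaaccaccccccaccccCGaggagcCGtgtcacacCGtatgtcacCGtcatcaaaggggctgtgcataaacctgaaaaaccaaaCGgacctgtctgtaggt
Id2, chr12:25096093-25096342, minus strand: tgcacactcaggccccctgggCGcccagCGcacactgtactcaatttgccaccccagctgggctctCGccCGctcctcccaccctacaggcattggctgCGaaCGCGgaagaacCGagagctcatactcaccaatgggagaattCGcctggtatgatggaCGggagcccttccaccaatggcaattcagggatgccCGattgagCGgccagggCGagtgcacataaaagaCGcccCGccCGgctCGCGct
Foxa1, chr12:57546112-57546361, minus strand: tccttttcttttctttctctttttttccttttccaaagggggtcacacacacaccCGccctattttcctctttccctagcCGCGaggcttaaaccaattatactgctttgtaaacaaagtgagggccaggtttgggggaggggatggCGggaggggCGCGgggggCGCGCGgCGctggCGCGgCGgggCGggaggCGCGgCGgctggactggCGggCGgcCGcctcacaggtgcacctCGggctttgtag

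Motifs were searched for on both strands of the same windows. None of the 8 promoters held TTCNNNGAA, the element that STAT factors bind, which was present in 8.30% of all promoters, and none held the full NFI palindrome, present in 0.0365%. CCAAT was found in 3 of the 8, those of Elf3, Foxa1 and Id2, against 37.4% of all promoters. In Id2 it occurred 3 times, starting at -159 on the opposite strand and at -120 and -76 on the gene's own strand, counted from the start of transcription. TATAAA was found in 2 of the 8, starting at -30 in Cebpa and at 21 in Cebpb, against 13.6% of all promoters. A match of letters is not a binding site, and no match says only that these letters are absent from the window. STAT5A peaks and H3K4me3 regions at these genes were not analysed here, since they are given in mm9 and no annotation of that build was at hand.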

How the data were processed

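The authors' deposited table gives FPKM for each assembled locus, most of them with a gene symbol, for 1 library from poly(A) RNA, per the labels' protocols. The submitters' processing notes name CASAVA, TopHat and the build mm9. The sources used here do not give the tool that assembled the loci and computed FPKM. The deposited peak lists were not used. Expression at other stages was not analysed here.

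Loci with 1 symbol (21958) were kept, the 117 with several symbols and the 8230 with none were left out, and the level of a gene was that of its highest locus. Genes and lists were matched by symbol or by a unique older symbol (Tfap2a, Tfap2b and Tfap2c). Percentiles count ties by their midpoint. Levels were drawn as log2(FPKM + 1). No minimum was applied. With 1 library no p-value was computed. The 10 genes and all lists were chosen with earlier results of these data known. Named are the listed genes, the 4 highest other genes of each list, and family genes at or above 10 FPKM; others were chosen after their values were seen. Alternatives were other levels per gene, an FPKM minimum of 1, single-locus genes, other pseudocounts and a shorter promoter window. Python 3.11.15, pandas 2.3.3 and numpy 2.4.6 were used, and the functions were tested on simulated data.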

Additional observations from a re-analysis of the deposited data

How the results depend on the processing

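Of 155 values recomputed under alternatives, 141 stayed within 1.5 times (levels, counts) or 5 percentage points (percentiles, shares) of the values reported, and 14 moved. Many of the 141 could not move, so this tally does not measure how firm the results are. Among them were levels of single-locus genes under other levels per gene and the median under other pseudocounts. Family shares without Nfib could not move under its next locus either. The counts of genes at or above 1, 10 and 100 FPKM stayed at 8, 7 and 2 in each alternative run for them, and the median ran from 18.1 to 25.7 FPKM. With the mean over loci, Nfib stood at 18.1 FPKM and Gata3 at 12.9. With its next locus, an alternative chosen after seeing the data, Nfib stood at 15.2 FPKM, at percentile 80.7. Among genes at or above 1 FPKM only, Elf3 fell at percentile 40.8, because low genes are left out there. TATAAA remained in 1 promoter without the bases after the start. Elf5, Id2, Ehf, Elf3, Cebpa, Cebpd and Foxa1 have a single locus, so the choice of locus left their levels as they were. No paired analysis was possible because a single library was used. Library depth is unknown, so no counting error can be given, least of all for low genes such as Foxa1.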
